A study of Mus musculus with 17 samples.

Results

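The genes described here build the synapse and release its vesicles: proteins that fuse the vesicle with the membrane, sense calcium, make up the vesicle and its release site, hold the synapse together and anchor the receptors opposite. Of 38 genes listed by name, 37 had a probe set with that symbol on the array, out of 18193 genes measured, and Shank2 had none listed. Where a gene had several probe sets, the one with the highest mean over the 17 arrays stood for it. The RNA came from cortical cells, isolated by fluorescence-activated sorting, of embryos of the hGFAP eGFP mouse line. This line expresses enhanced green fluorescent protein (GFP) from a human GFAP promoter. There was 1 array per sample. The 4 groups at embryonic day 14 (E14) were GFP-high cells selected for Prominin, a surface protein of the apical membrane of neural stem cells (n = 4), GFP-low cells selected for it (n = 3), and GFP-high (n = 3) or GFP-low cells (n = 3) whose labels name no such gate, which are termed ungated. The group at embryonic day 18 (E18) held cells positive for GFP and selected for Prominin (n = 4). Every group carries the transgene, which reports the activity of a promoter and not a cell type. The mRNA of the mouse's own Gfap lay at group means of 4.82 to 5.77, below the median gene level of 6.29. Whether samples were taken from different litters is not stated in the labels, so the p-values cover the spread between these samples alone, which may be technical.

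At a synapse, vesicles filled with neurotransmitter dock at the active zone of the axon. SNARE proteins pull vesicle and plasma membrane together, complexins hold them ready, and synaptotagmins trigger fusion when calcium enters. Neurexins, neuroligins and calsyntenins span or line the cleft, and scaffolds such as PSD-95 hold receptors and kinases on the other side. Radial glia, the stem cells of the embryonic cortex, divide at the ventricle, and the neurons they give rise to switch these genes on as they mature.

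Promoter windows came from RefSeq on GRCm38.p6, which held 45 windows for 29 of the 38 genes (250 bases before to 50 after each annotated start), and all were searched whatever the gene's change. Motifs searched on both strands were TTCAGCACC and GGACAGCG, the left and right parts of RE1, the element bound by the neuronal gene repressor REST, and the cyclic AMP response element TGACGTCA. These letters occurred in 0.371%, 1.26% and 1.79% of all 32851 windows. Among the 45 windows, TTCAGCACC lay in those of Syn1, Unc13a and Nlgn1, GGACAGCG in that of Unc13a, and TGACGTCA in those of Syn1, Clstn2 and Clstn3. Of the 29 genes, 24 held none of the 3 motifs, among them Lrfn5, Cplx1, Syt1 and Slc17a6. Of the 21 with a window that were lower in ungated GFP-high cells, 4 held a motif and 17 none, and of the 7 not called there, 1 did, Nlgn1. The windows of Syn1, Unc13a and Clstn2 are shown to place the letters found in genes called in several comparisons, with the matches in capitals. A match is a description of the letters and not a binding site. Syn1 lies at chrX:20920869-20921168, Unc13a at chr8:71671708-71672007 and Clstn2 at chr9:98033118-98033417, all on the minus strand.
Syn1: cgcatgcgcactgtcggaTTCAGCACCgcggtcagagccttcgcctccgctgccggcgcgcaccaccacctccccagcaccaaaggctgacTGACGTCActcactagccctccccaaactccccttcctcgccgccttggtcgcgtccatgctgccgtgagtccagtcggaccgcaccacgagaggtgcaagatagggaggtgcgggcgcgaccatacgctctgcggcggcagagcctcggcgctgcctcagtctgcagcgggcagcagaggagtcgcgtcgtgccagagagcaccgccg
Unc13a: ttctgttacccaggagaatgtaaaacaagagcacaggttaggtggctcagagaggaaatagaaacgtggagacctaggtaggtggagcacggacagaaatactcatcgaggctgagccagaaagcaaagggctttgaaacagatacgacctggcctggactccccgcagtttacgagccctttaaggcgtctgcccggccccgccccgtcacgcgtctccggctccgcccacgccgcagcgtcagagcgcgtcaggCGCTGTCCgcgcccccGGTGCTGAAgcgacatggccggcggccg
Clstn2: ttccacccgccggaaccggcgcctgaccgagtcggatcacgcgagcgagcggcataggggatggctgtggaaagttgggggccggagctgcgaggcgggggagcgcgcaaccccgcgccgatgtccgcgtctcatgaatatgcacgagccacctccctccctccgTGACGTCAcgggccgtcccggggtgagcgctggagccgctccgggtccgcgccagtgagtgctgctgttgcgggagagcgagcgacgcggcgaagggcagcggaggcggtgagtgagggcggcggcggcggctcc
In Syn1 the left part of RE1 ran from base -232 to -224 and the response element from -159 to -152, counted from the start of transcription. In Unc13a the right and left parts of RE1, read on the opposite strand, lay after the start, at bases 7 to 14 and 23 to 31. In Clstn2 the response element ran from -85 to -78.

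Levels are log2 of the deposited intensity plus 16, normalised by quantiles over the 17 arrays, with group values as mean ± SD. Before that normalisation a level of 4 is a signal of 0, and the median of all genes was 6.29. Log2 fold changes carry a standard error (± SE). A gene was called when its limma p (two-sided), adjusted by Benjamini-Hochberg over all 18193 genes, was under 0.05, and no fold is given if the mean of the dimmer group did not exceed 6.29. The number of arrays limits the precision. The 7 Prominin-selected E14 arrays stood apart in 18S RNA, which read 2292 to 5192 on them, against 175 to 627 on ungated and 302 to 583 on E18 arrays. Their 3′ minus 5′ difference of Gapdh was 0.54 to 2.29, above the -0.25 to 0.18 of the ungated arrays and overlapping the -0.21 to 1.00 at E18. Labelling used a MessageAmp II kit for 12 arrays, the 11 Prominin-selected ones and replicate 1 of the ungated GFP-high group, and an Affymetrix kit for 5. Radial glia markers stood above the median gene level for 13 of 13 genes in both E14 GFP-high groups and in GFP-low Prominin-selected cells, and for 11 of 13 in ungated GFP-low and E18 cells. Prom1, the gene of the Prominin gate, was at 8.84 ± 0.17 at E18, below its 10.79 ± 0.04 in ungated GFP-high cells at E14.

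The synaptic genes as a set followed the sort. The median level of the 37 genes was 6.25 to 6.50 on the ungated GFP-high arrays, 6.81 to 7.27 on GFP-high Prominin-selected, 7.55 on each of the 3 GFP-low Prominin-selected, 7.46 to 7.93 on E18 and 7.78 to 8.26 on ungated GFP-low arrays. The arrays of the 4 E14 groups did not overlap in this median. Of the 37 genes, 23 had their highest group mean in ungated GFP-low cells and 8 at E18, and 25 had their lowest in ungated GFP-high cells. There were 17 above the median gene level in all 5 groups and 3 in none: Vamp1, Shank1 and Camk2a. The summed intensity of 18 neuron markers ran in a like order, at 15441 to 15525 in ungated GFP-high cells, 22433 to 25818 in GFP-high and 36422 to 37501 in GFP-low Prominin-selected cells, 36931 to 42704 at E18 and 53181 to 61341 in ungated GFP-low cells. That of 13 radial glia markers was highest in ungated GFP-high cells, at 35412 to 39457, and lowest in ungated GFP-low cells, at 6469 to 9339. The part of these cell type markers in the synaptic genes' levels was not tested. In bulk samples, fewer cells of a type and less RNA per cell cannot be told apart.

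**Figure D1:**
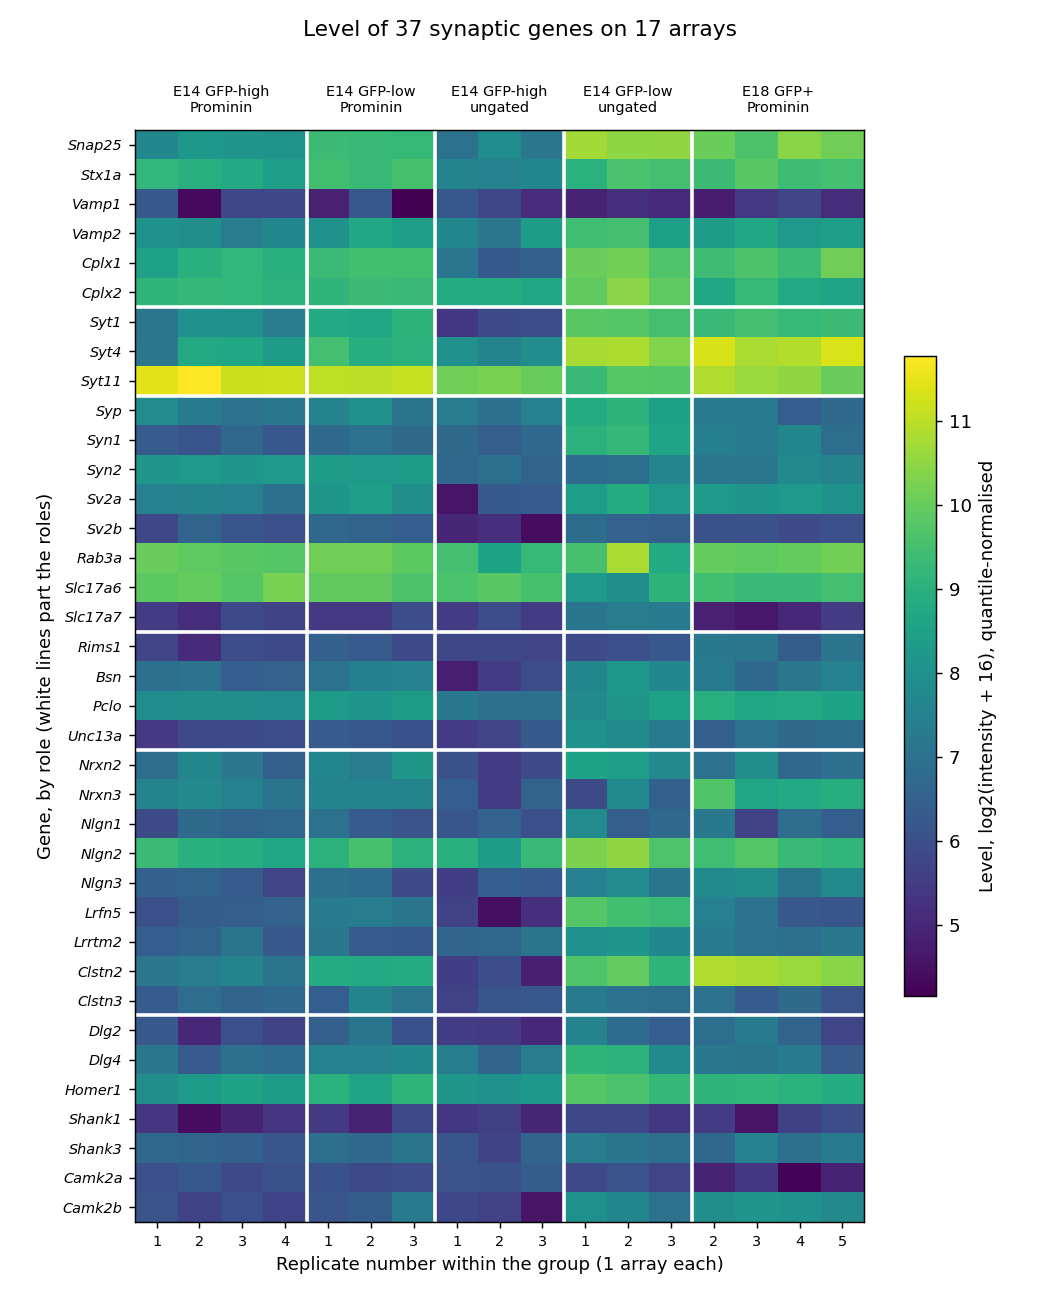
Level of each of the 37 synaptic genes (rows, by role) on each of the 17 arrays (columns, by group), as log2(intensity + 16) after quantile normalisation. By group mean, 25 rows are lowest in the ungated GFP-high columns and 23 are highest in the ungated GFP-low columns, not always the same rows. Slc17a6 is among the 4 that run the other way between these groups, and Clstn2 is among the 8 that are highest at E18.

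**Figure D2:**
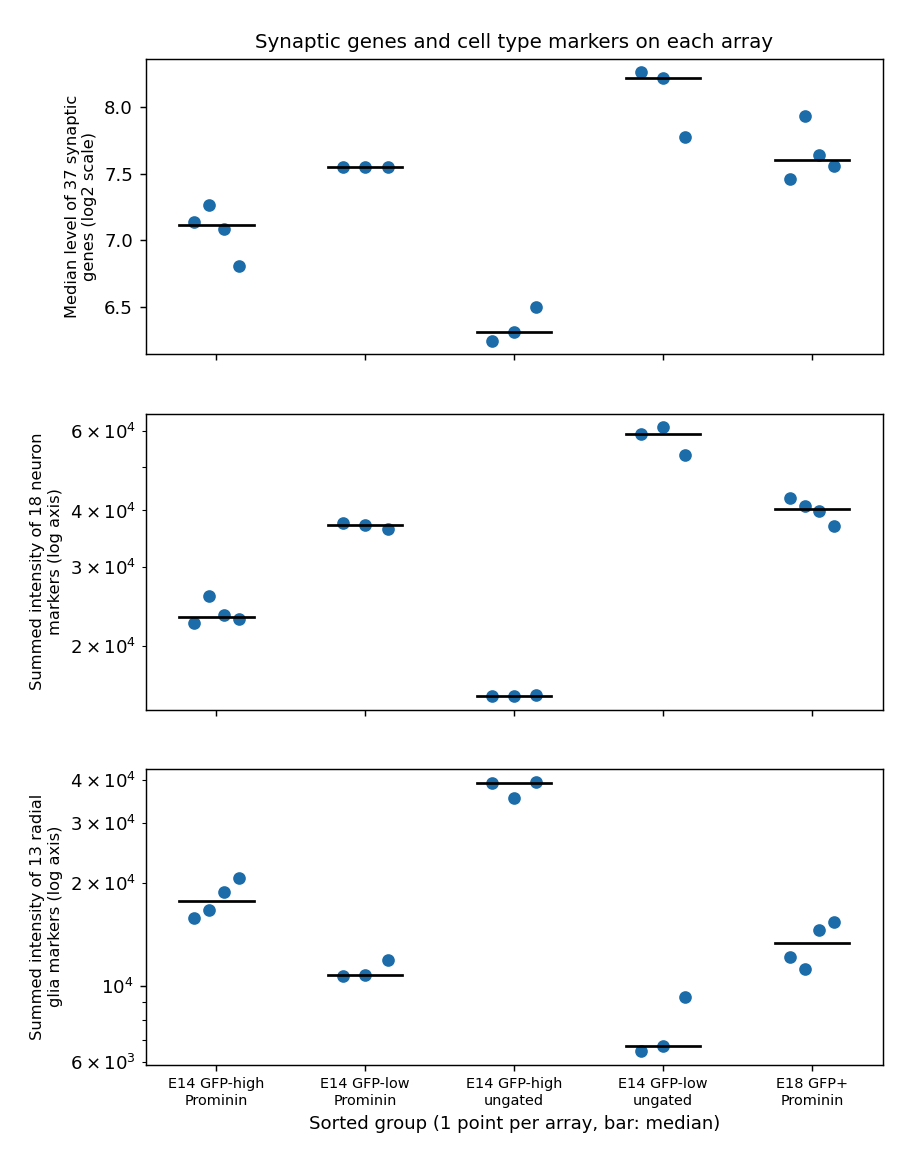
Median log2 level of the 37 synaptic genes (top), summed intensity of 18 neuron markers (middle, log axis) and of 13 radial glia markers (bottom, log axis), with 1 point per array and a bar at the group median. The synaptic median and the neuron sum are lowest in ungated GFP-high cells (6.25 to 6.50 and 15441 to 15525), where the radial glia sum is highest (35412 to 39457).

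In ungated cells at E14, GFP-high cells had less of most synaptic mRNAs than GFP-low cells. Of the 37 genes, 26 fell and 1, Slc17a6, rose, against 8.16% and 7.61% of all genes called lower and higher, and the median log2 fold change was -1.40 against -0.01 over all genes. The falls were spread over the roles: 4 of 6 SNARE and complexin genes, 2 of 3 synaptotagmins, 5 of 8 genes of vesicle proteins and transporters, 3 of 4 active zone genes, 7 of 9 adhesion genes and 5 of 7 postsynaptic genes. Neuron markers fell with them, 15 of 18, and 13 of 13 radial glia and 6 of 6 basal progenitor markers rose. Whether these shifts in markers set those of the synaptic genes was not tested. The 2 GFP levels also differed in kit on 1 array. Without that array, GFP-high replicate 1, 20 synaptic genes fell and none rose, and 1841 of all 18193 genes were called.

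Among fusion proteins, Snap25, the plasma membrane SNARE that pairs with syntaxin, was at 7.03, 7.86 and 7.18 on the GFP-high arrays and at 10.73, 10.49 and 10.51 on the GFP-low arrays. The 2 groups were far apart, at 9.32-fold lower in GFP-high cells (-3.22 ± 0.25, adjusted p = 0.000667). Cplx1, a complexin that clamps the fusion machinery, read 7.15, 6.31 and 6.50 against 10.05, 10.17 and 9.67 (9.89-fold lower, -3.31 ± 0.27, adjusted p = 0.000679). Its relative Cplx2 differed less, from 8.72 to 8.87 against 9.89 to 10.44 (2.42-fold lower, -1.27 ± 0.21, adjusted p = 0.00711). Stx1a, the syntaxin of the plasma membrane, was at 7.51 to 7.64 against 9.03 to 9.61 (3.48-fold lower, adjusted p = 0.00178). The vesicle SNARE gene Vamp2 did not pass, at 7.71, 7.17 and 8.32 against 9.43, 9.50 and 8.44 (adjusted p = 0.0554). Vamp1, a vesicle SNARE gene of the same family, stayed dim at 5.73 ± 0.56 and 5.06 ± 0.15 (adjusted p = 0.198).

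Syt1, the calcium sensor of fast release, was at 5.38, 5.92 and 5.99 on GFP-high arrays against 9.83, 9.74 and 9.51 on GFP-low arrays (-3.93 ± 0.22, adjusted p = 0.000588). Its GFP-high levels lay below the median gene level on each of the 3 arrays. Syt4, a synaptotagmin of dense core vesicles, was at 8.01, 7.56 and 7.90 against 10.77, 10.84 and 10.32 (7.06-fold lower, -2.82 ± 0.22, adjusted p = 0.000667). Syt11, which does not bind calcium, ran the other way without passing, at 10.12 ± 0.12 against 9.61 ± 0.28 (0.51 ± 0.20, adjusted p = 0.155).

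Of the vesicle proteins, synapsin 1 (Syn1), which tethers vesicles to each other, read 6.79, 6.46 and 6.77 in GFP-high cells and 9.06, 9.22 and 8.60 in GFP-low cells (4.88-fold lower, -2.29 ± 0.22, adjusted p = 0.00109). Synapsin 2 (Syn2) did not pass, at 6.76 ± 0.16 and 7.11 ± 0.44 (adjusted p = 0.441), and its arrays overlapped. The membrane protein genes Sv2a and Sv2b were at 5.74 ± 1.00 against 8.53 ± 0.31 (-2.79 ± 0.48) and 4.85 ± 0.41 against 6.62 ± 0.19 (-1.77 ± 0.25), both lower (adjusted p = 0.00890 and 0.00381). Sv2a on GFP-high replicate 1, at 4.58, was far below replicates 2 and 3, at 6.30 and 6.33. Synaptophysin (Syp), a membrane protein of small vesicles, was 2.88-fold lower (7.27 ± 0.30 against 8.80 ± 0.29, adjusted p = 0.00595). The call of Syp ended in 2 of 14 alternatives, among them the mean of all probe sets (adjusted p 0.0541 to 0.255). Rab3a, the small GTPase that docks vesicles, spread from 8.81 to 10.79 within the GFP-low arrays and did not pass (adjusted p = 0.504).

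The genes of the 2 vesicular glutamate transporters went apart. Slc17a7, which encodes VGLUT1, was at 5.47, 5.97 and 5.47 on GFP-high arrays, in the dim range, and at 7.10, 7.39 and 7.26 on GFP-low arrays (-1.62 ± 0.21, adjusted p = 0.00267). Slc17a6, which encodes VGLUT2, was at 9.61, 9.83 and 9.55 against 8.26, 7.94 and 9.08 (2.35-fold higher at high GFP, 1.23 ± 0.31, adjusted p = 0.0357). A second probe set of Slc17a6 differed in the same direction (1.46, adjusted p = 0.0466 in the fit of all probe sets). The call of Slc17a6 ended in 8 of 14 alternatives, with the direction kept (adjusted p 0.0747 to 0.167), among them the removal of any ungated array except GFP-low replicate 3.

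At the active zone, Bassoon (Bsn), a large scaffold of the release site, read 4.80, 5.51 and 5.94 against 7.64, 8.22 and 7.70 (-2.43 ± 0.32, adjusted p = 0.00315). Its call ended with the mean of all probe sets (adjusted p = 0.0806). Unc13a, which primes vesicles for fusion, read 5.51, 5.73 and 6.32 against 8.05, 7.80 and 7.32 (-1.87 ± 0.29, adjusted p = 0.00542). Piccolo (Pclo), a relative of Bassoon in function, differed less, at 7.05 ± 0.17 and 8.16 ± 0.38 (2.16-fold lower, adjusted p = 0.0206), and lost its call without GFP-high replicate 2 or 3 or GFP-low replicate 2 (adjusted p up to 0.101). Rims1, a scaffold that links vesicles to calcium channels, stayed at 5.78 ± 0.03 and 6.06 ± 0.16 (adjusted p = 0.344).

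The adhesion genes held the 2 largest falls of the 37. Lrfn5, a leucine-rich repeat protein of the postsynaptic membrane, was at 5.66, 4.45 and 5.20 on GFP-high arrays and 9.76, 9.47 and 9.36 on GFP-low arrays (-4.43 ± 0.32, adjusted p = 0.000643). Clstn2, a calsyntenin of the cadherin superfamily, was at 5.57, 5.94 and 4.83 against 9.67, 9.96 and 9.15 (-4.15 ± 0.34, adjusted p = 0.000693). The related Clstn3 moved less, with 5.65, 6.12 and 6.22 against 7.26, 7.02 and 6.91 (-1.06 ± 0.22, adjusted p = 0.0173). Nrxn2, a presynaptic neurexin, was at 5.82 ± 0.28 against 8.24 ± 0.43 (-2.43 ± 0.27, adjusted p = 0.00170), whereas Nrxn3 spread from 5.90 to 7.79 among GFP-low arrays and did not pass (adjusted p = 0.545). The postsynaptic partners of neurexins, the neuroligins Nlgn2 (2.39-fold lower, adjusted p = 0.0397) and Nlgn3 (-1.35 ± 0.30, adjusted p = 0.0244), and Lrrtm2 (2.21-fold lower, adjusted p = 0.0115) also fell, and Nlgn1 did not pass, at 6.26 ± 0.27 and 7.01 ± 0.72 (adjusted p = 0.245). Among these, leaving out single arrays ended the calls of Nlgn2 (GFP-high 1 or 2, GFP-low 1 or 2), Nlgn3 (GFP-high 1 or 3, GFP-low 1 or 2), Lrrtm2 (GFP-high 1) and Clstn3 (GFP-high 1 or GFP-low 1). Over the alternatives that ended them the adjusted p ran from 0.0501 to 0.409.

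Of the postsynaptic genes, Homer1, a scaffold that links glutamate receptors to calcium stores, was at 8.17, 8.04 and 8.21 against 9.77, 9.62 and 9.24 (2.64-fold lower, adjusted p = 0.00388). Camk2b, a subunit of calcium/calmodulin-dependent kinase II, read 5.82, 5.65 and 4.55 against 7.98, 7.66 and 7.02 (-2.21 ± 0.40, adjusted p = 0.0104). Camk2a, the other main brain subunit, was dim on all 6 arrays, from 5.74 to 6.39 (adjusted p = 0.401). Dlg4, the gene of PSD-95, was 2.90-fold lower (adjusted p = 0.0478), and Dlg2 (adjusted p = 0.0147) and Shank3 (adjusted p = 0.0447) fell to dim levels of 5.33 ± 0.27 and 6.14 ± 0.43. The calls of Dlg4 and Shank3 each ended in 9 of 14 alternatives, among them the removal of any array but GFP-low replicate 3 for Dlg4 and of any but GFP-high replicate 3 for Shank3 (adjusted p 0.0507 to 0.196), and that of Dlg2 without GFP-high replicate 3. Shank1, a scaffold of the same family as Shank3, stayed at 5.32 ± 0.32 and 5.65 ± 0.24.

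Within the Prominin gate the same contrast was smaller, and 4 of 37 genes fell and none rose in GFP-high cells, against 1.20% and 0.478% of all genes. The median log2 fold change was -0.43 against -0.01 over all genes, with 32 of 37 below 0. At an unadjusted p under 0.05 there were 17 of 37, and 2440 of all 18193 genes. The 4 came from as many roles. Clstn2 was at 7.17, 7.38, 7.58 and 7.07 on GFP-high arrays and 8.84, 8.81 and 8.87 on GFP-low arrays, with no overlap (2.90-fold lower, -1.54 ± 0.17, adjusted p = 0.00225). Snap25 was at 7.70, 8.20, 8.13 and 8.11 against 9.38, 9.29 and 9.26 (2.42-fold lower, adjusted p = 0.00924). Syt1 was at 7.14, 8.01, 7.98 and 7.38 against 8.82, 8.66 and 9.07 (2.33-fold lower, -1.22 ± 0.22, adjusted p = 0.0207). Sv2a was at 7.49, 7.55, 7.51 and 6.93 against 8.20, 8.39 and 7.94 (1.74-fold lower, -0.80 ± 0.18, adjusted p = 0.0471). Each of the 4 was also among the 26 called lower in ungated cells. How many of all genes were lower in both contrasts was not counted. The 2 contrasts share no array, but all 17 arrays were normalised together.

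The calls within the gate rested on few arrays. Without GFP-high replicate 4 or GFP-low replicate 1 or 3, 2 of the 4 remained called, since Syt1 and Sv2a dropped out, and without any of the other arrays Sv2a dropped out. With both GFP-high replicate 1 and GFP-low replicate 3 removed, a choice made after the data were seen, none of the 37 passed. Clstn2 then had an adjusted p of 0.0506 (limma). Of all 18193 genes, 6 were called in that setting. The replicate block, which treats arrays of 1 number as a pair, left Clstn2 alone among the 37. Neuron markers fell within the gate for 6 of 18 genes and Cajal-Retzius markers for 7 of 8, the latter with a summed intensity of 679 to 832 in GFP-high and 3738 to 5127 in GFP-low cells. Radial glia markers were above 0 for 13 of 13 genes and rose for 3, with sums of 15842 to 20750 against 10706 to 11955, and 1 of 6 basal progenitor markers rose. The part of these markers was not tested.

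Other genes of the set had Prominin-selected groups that did not overlap without passing the test. How many of all genes separated in this way was not counted, so the separation is not taken as a difference. Pclo, Syn1, Unc13a, Dlg4, Camk2b and Shank3 were such genes, as were those given below except Slc17a6. Syt4 was at 7.18, 8.75, 8.69 and 8.31 against 9.49, 8.89 and 9.05 (-0.91 ± 0.33, adjusted p = 0.236), with GFP-high replicate 1 far below the rest. Lrfn5 was at 6.01 to 6.55 against 7.13 to 7.37 (-0.91 ± 0.28, adjusted p = 0.144), and Homer1 at 7.92 to 8.54 against 8.60 to 9.15 (-0.64 ± 0.19, adjusted p = 0.125). Stx1a and Cplx1 read -0.59 ± 0.20 and -0.52 ± 0.21 (adjusted p = 0.188 and 0.307). Syt11 was higher on each GFP-high array, at 11.16 to 11.77 against 11.02 to 11.10, without passing (0.35 ± 0.21, adjusted p = 0.529). Slc17a6 had overlapping arrays, at 9.96 ± 0.20 and 9.83 ± 0.16 (0.13 ± 0.16, adjusted p = 0.801).

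**Figure D3:**
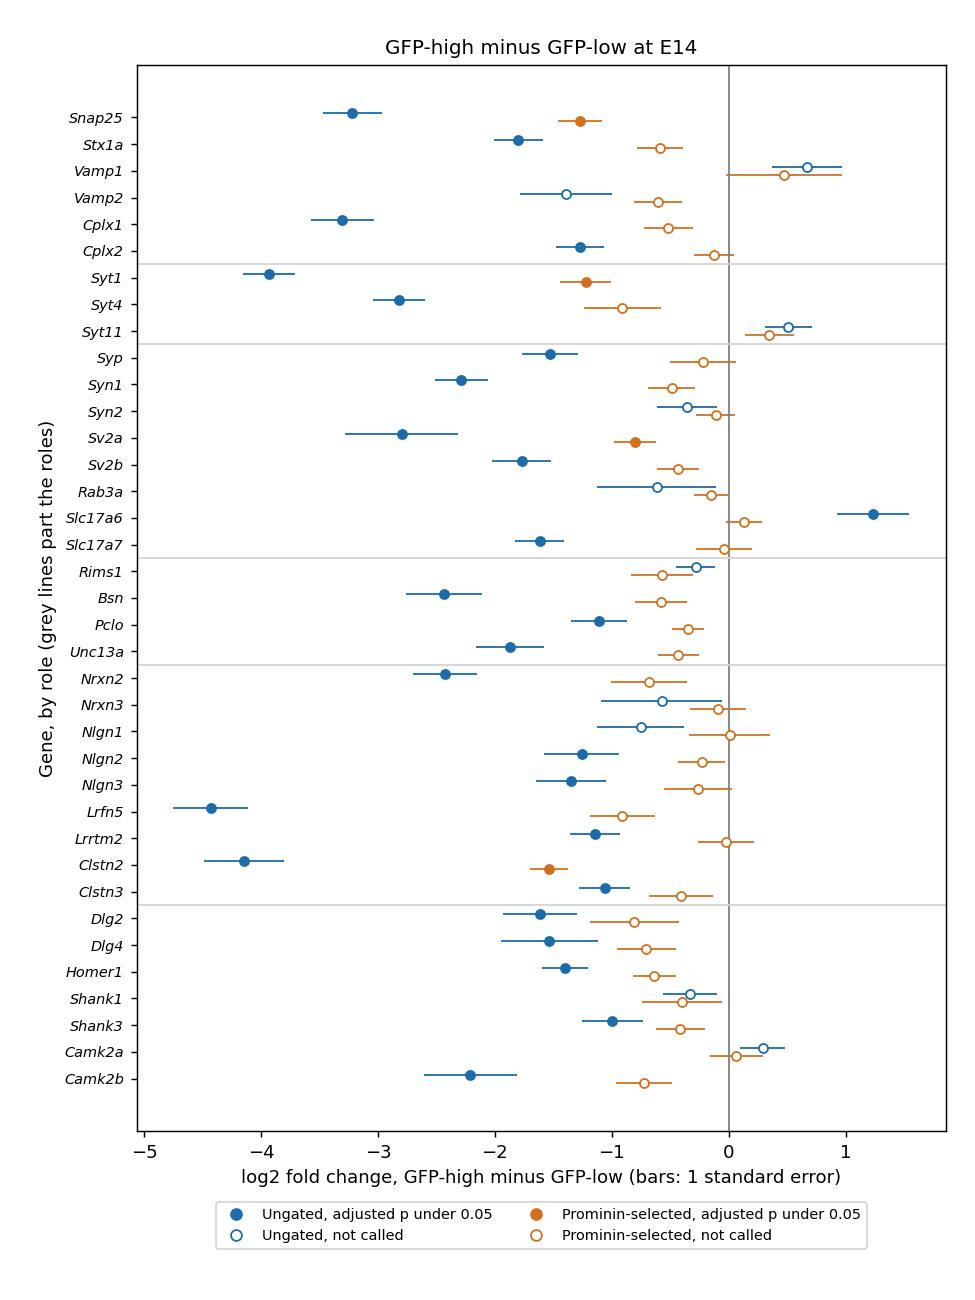
Log2 fold change of each synaptic gene, GFP-high minus GFP-low at E14, within the Prominin gate and without it, with bars of 1 standard error and filled points for an adjusted p under 0.05. Without the gate 26 genes are called lower and Slc17a6 higher, and within it 4 are called lower.

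The difference between the 2 contrasts was tested as the gated minus the ungated one, on all 17 arrays. It was called above 0 for 15 of 37 genes and below 0 for 1, Slc17a6, against 3.87% and 3.83% of all genes. The median was 1.09 against 0.00, and by sign alone 31 of 37 lay above 0 and 6 below. For the 15 called above 0, the contrast was less negative within the gate. The difference was 3.52 ± 0.44 for Lrfn5 (adjusted p = 0.000277), 2.79 ± 0.34 for Cplx1 (adjusted p = 0.000230), 2.71 ± 0.32 for Syt1 (adjusted p = 0.000188) and 2.61 ± 0.35 for Clstn2 (adjusted p = 0.000388). It was 1.95 ± 0.31 for Snap25 (adjusted p = 0.000966) and 1.80 ± 0.30 for Syn1 (adjusted p = 0.00130). The others were Stx1a, Cplx2, Syt4, Sv2a, Sv2b, Slc17a7, Bsn, Unc13a and Nrxn2, at 1.14 to 1.99. For Slc17a6 it was -1.11 ± 0.32 (adjusted p = 0.0404), a call that ended in 15 of 21 alternatives (adjusted p up to 0.110). The calls of Stx1a and Bsn ended with the mean of all probe sets (adjusted p = 0.0637 and 0.284). That of Nrxn2 ended without any of 7 single arrays: GFP-high or GFP-low gated replicate 2, gated GFP-high replicate 3, gated GFP-low replicate 1, ungated GFP-high replicate 2, or ungated GFP-low replicate 1 or 2 (adjusted p 0.0528 to 0.0764). Neuron markers moved alike, with 11 of 18 called above 0, and those called below 0 were 11 of 13 radial glia, 3 of 6 basal progenitor and 3 of 8 Cajal-Retzius markers. The 18S and Gapdh control signals also differ between gated and ungated arrays at E14, without overlap. The part of markers and control signals in the difference of contrasts was not tested. Without ungated GFP-low replicate 3, 20 synaptic genes were called above 0 and 1 below, and 1729 of all 18193 genes were called.

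Gated and ungated cells were then set against each other at either GFP level. Labelling kit and control signals also differ between them, so these comparisons cannot show on which side the contrast narrowed. These comparisons share arrays with those above and with each other, so no overlap between them is counted as support. Among GFP-high cells, 14 of 37 genes were higher with the Prominin gate and none lower, against 11.8% and 8.98% of all genes, with a median of 0.41 against 0.02. At an unadjusted p under 0.05 there were 16 of 37, and 5855 of all 18193 genes. Among GFP-low cells, 3 were higher and 14 lower, against 10.8% and 8.46%, with a median of -0.53 against 0.02. Snap25, Syt1, Lrfn5 and Clstn2 were called higher with the gate at high GFP and lower with it at low GFP, but none of the 4 kept both calls with the labelling kit as a factor in the fit. Snap25, Syt1 and Clstn2 then lost the call at low GFP (adjusted p = 0.312, 0.774 and 0.312) and Lrfn5 that at high GFP (adjusted p = 0.325).

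On the GFP-high side, Cplx1 stood 4.80-fold higher with the gate (8.51, 8.99, 9.19 and 8.99 against the ungated values above, 2.26 ± 0.23, adjusted p = 8.03e-06). Syt1 differed by 1.86 ± 0.22 (adjusted p = 2.23e-05) and Clstn2 by 1.86 ± 0.24 (adjusted p = 5.5e-05) from dim ungated levels. Stx1a, at 9.21, 8.95, 8.82 and 8.41, was 2.41-fold higher (adjusted p = 0.000231). Of the vesicle and active zone genes, Syn2 (2.75-fold), Sv2a, Sv2b, Bsn and Pclo (1.81-fold) were called, and of the adhesion genes Nrxn2, Nrxn3 and Lrfn5. None of the 7 postsynaptic genes was called, with log2 fold changes of -0.32 to 0.54 and none at an unadjusted p under 0.05. Snap25 was 1.60-fold higher with overlapping arrays (adjusted p = 0.0305), and its call ended without any of 5 arrays: GFP-high gated replicate 2, 3 or 4, or ungated replicate 1 or 3 (adjusted p up to 0.158). Those of Nrxn2 and Nrxn3 ended without ungated replicate 2. With the mean of all probe sets the calls of Stx1a, Syt11, Bsn and Nrxn2 ended. This comparison also crosses the control signals and the kit. The 18S signal read 2446 to 5192 with the gate and 179 to 427 without it. Gapdh 3′ minus 5′ was 0.54 to 1.70 and -0.21 to -0.19. Ungated replicates 2 and 3 carry the Affymetrix kit. A fit with the kit as a factor thus sets the gated arrays against ungated replicate 1 alone. With the kit as a factor, 10 of the 14 calls held, and those of Pclo, Nrxn2, Nrxn3 and Lrfn5 ended (adjusted p = 0.110, 0.203, 0.256 and 0.325). Neuron markers were higher for 8 of 18 genes and lower for 1, and radial glia markers lower for 9 of 13. Interneuron markers were higher for 6 of 9, with sums of 384 to 715 against 101 to 174, Cajal-Retzius markers higher for 2 of 8 and basal progenitor markers lower for 3 of 6. The part of control signals and markers was not tested.

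On the GFP-low side, Lrfn5 was at 7.30, 7.37 and 7.13 with the gate, 4.81-fold lower than without it (-2.27 ± 0.32, adjusted p = 0.000188). Syn1 was at 6.75, 7.02 and 6.78, 4.31-fold lower (-2.11 ± 0.22, adjusted p = 1.96e-05), so that the ungated GFP-low arrays stood alone in their level of this gene at E14. Slc17a7 (5.42, 5.41 and 5.98 with the gate, -1.65 ± 0.24, adjusted p = 0.000253) and Unc13a (6.33, 6.21 and 6.09, -1.52 ± 0.23, adjusted p = 0.000378) showed the same arrangement. The others that were lower were Snap25 (2.41-fold), Cplx2, Syt1, Syt4 (2.83-fold), Syp (2.38-fold), Nlgn2, Lrrtm2 (2.50-fold), Clstn2, Dlg4 and Homer1. Slc17a6 was 2.64-fold higher with the gate (1.40 ± 0.23, adjusted p = 0.000612). Syn2, at 8.36, 8.27 and 8.35 with the gate, was 2.32-fold higher (1.21 ± 0.21, adjusted p = 0.000842), and thus higher with the gate at both GFP levels. Syt11 was also higher with it at both, by 2.44-fold and 2.73-fold, but 1 of its other probe sets was called the opposite way in both (-2.58 and -2.35).

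The comparison of GFP-low cells crosses the labelling kit on every array, with MessageAmp II named for the gated and Affymetrix for the ungated ones, and the difference in 18S and Gapdh control signals. Kit and gate can be told apart through ungated GFP-high replicate 1 alone. With the kit as a factor in the fit, 2 of 37 genes, Syn1 and Lrfn5, were called at low GFP. Single arrays also mattered: the calls of Syt1, Nlgn2, Clstn2, Dlg4 and Homer1 at low GFP each ended without 4 or 5 single arrays, and the count ran from 12 to 20 over the single removals. It was 12 without gated GFP-low replicate 1 or ungated GFP-low replicate 1, where 2679 and 2420 of all 18193 genes were called. Neuron markers were lower with the gate for 10 of 18 genes and higher for 1, and Cajal-Retzius markers higher for 7 of 8, with a summed intensity of 3738 to 5127 against 459 to 659. Radial glia markers were higher for 6 of 13, interneuron markers for 5 of 9, and basal progenitor markers for 5 of 6 with 1 lower. The part of these markers was not tested.

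**Figure D4:**
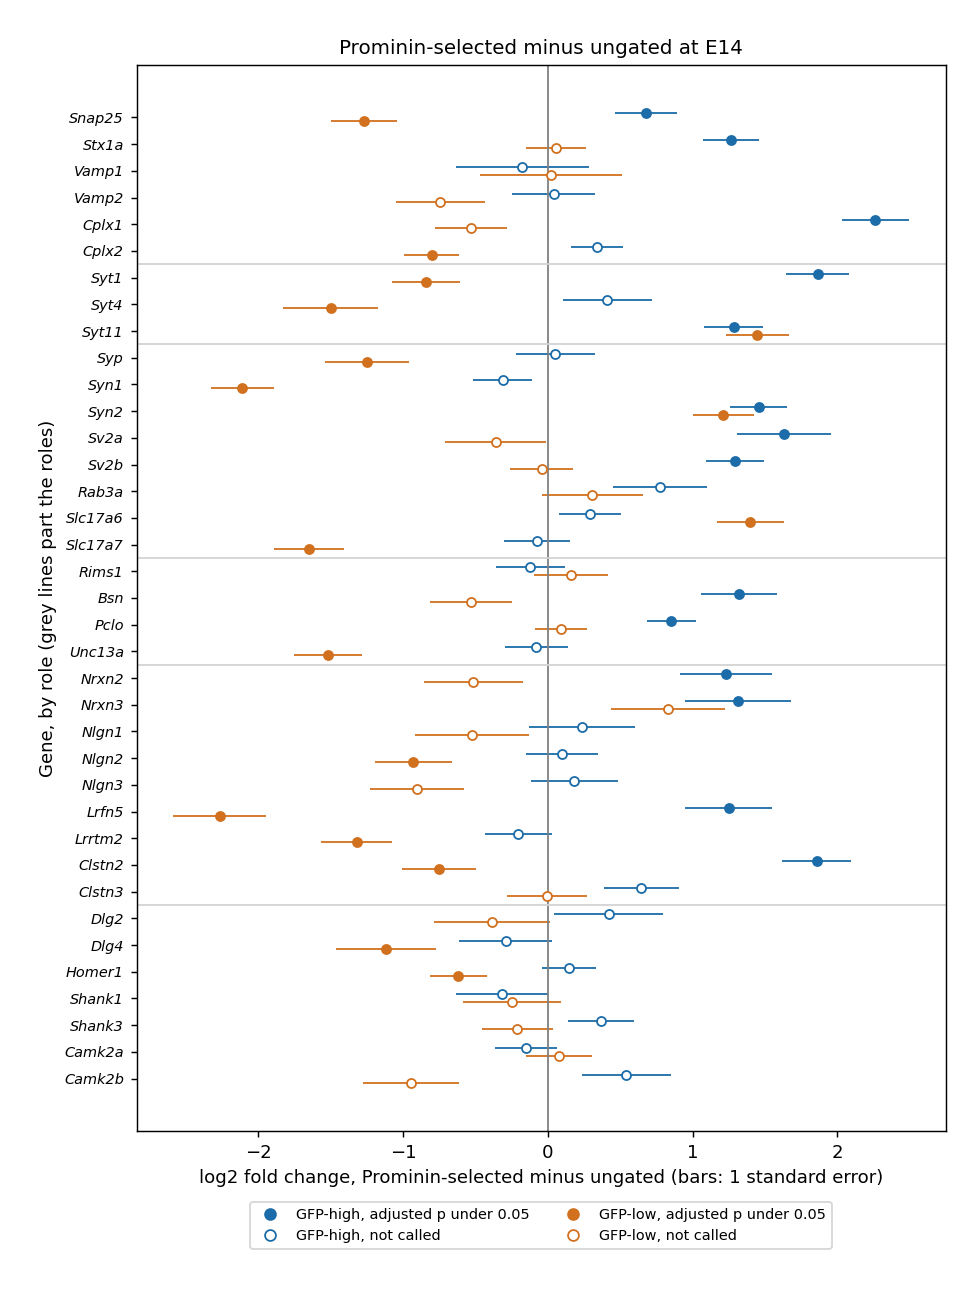
Log2 fold change of each synaptic gene, Prominin-selected minus ungated at E14, in GFP-high and in GFP-low cells, with bars of 1 standard error and filled points for an adjusted p under 0.05. In GFP-high cells the 14 called genes lie above 0, and in GFP-low cells 14 of the 17 called lie below 0, with Syt11, Syn2 and Slc17a6 above it.

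At E18, more synaptic genes were called higher than lower in GFP-positive Prominin-selected cells. The E18 label names no high or low GFP level. Each comparison with E14 thus crosses the GFP sort as well as age, and the part of either cannot be told apart. Against E14 GFP-high cells of the same gate, 17 of 37 were higher and 4 lower, against 10.2% and 16.5% of all genes, with a median of 0.50 against -0.07. Against E14 GFP-low cells, 8 were higher and 3 lower, against 6.02% and 11.4% of all genes, with a median of 0.09 against -0.10. Both comparisons share the E18 arrays. With the values scaled as deposited, the median of all genes in the former moved from -0.07 to 0.04. That of the synaptic genes moved from 0.50 to 0.64, with 20 higher and 4 lower. Of all 18193 genes, 4719 were then called, 46.7% of these higher.

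Clstn2 changed most, at 10.86, 10.79, 10.62 and 10.42 on the E18 arrays, above every E14 array of any group. It was 10.3-fold higher than in E14 GFP-high cells (3.37 ± 0.15, adjusted p = 1.25e-07) and 3.56-fold higher than in GFP-low cells (1.83 ± 0.17, adjusted p = 3.16e-05). Syt4, at 11.31, 10.81, 10.91 and 11.34, was 7.26-fold and 3.86-fold higher (adjusted p = 3.18e-05 and 0.00183). Snap25, at 10.06, 9.64, 10.41 and 10.12, was 4.07-fold and 1.68-fold higher (adjusted p = 7.1e-06 and 0.0174), and the latter call ended without GFP-low replicate 2 or 3. Syt1, at 9.25 to 9.50, was 3.32-fold higher than in GFP-high cells (adjusted p = 5.56e-05) and did not pass against GFP-low cells (0.51 ± 0.22, adjusted p = 0.132).

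Of the 9 adhesion genes, Clstn2, Nrxn3 and Nlgn3 rose against both E14 groups and the other 6 passed against neither. Nrxn3 was at 9.70, 8.65, 8.81 and 8.91, 2.92-fold above GFP-high and 2.73-fold above GFP-low cells (adjusted p = 0.000248 and 0.00144). Nlgn3, at 7.80, 7.93, 7.12 and 7.81, was 2.57-fold and 2.14-fold higher (adjusted p = 0.00243 and 0.0217), with replicate 4 the lowest. Of the 2 kinase genes, Camk2b rose and Camk2a, described below, fell. Camk2b was at 7.94, 8.14, 8.00 and 7.74 against 5.69 to 6.11 in GFP-high cells (2.07 ± 0.22, adjusted p = 3.18e-05) and 6.16 to 7.28 in GFP-low cells (2.55-fold, adjusted p = 0.00249). Of the active zone, Pclo was 1.81-fold and 1.42-fold higher, Unc13a rose from dim levels by 0.99 ± 0.17 and 0.56 ± 0.18, and Rims1 by 1.31 ± 0.24 against GFP-high cells (adjusted p = 0.00163), to 6.96 ± 0.39. A further 7 genes were called higher against GFP-high cells but not against GFP-low cells: Stx1a, Vamp2, Cplx1, Syn1, Sv2a, Homer1 and Shank3, at 1.53-fold to 1.93-fold. The difference between these comparisons was not tested. Against GFP-high cells, the call of Vamp2 ended without GFP-high replicate 3 or E18 replicate 3, and that of Shank3 without GFP-high replicate 3 or 4 or E18 replicate 3 or 5 (adjusted p up to 0.121 over the alternatives). Against GFP-low cells, that of Pclo ended without GFP-low replicate 2 or E18 replicate 2 or 4, and that of Nlgn3 without GFP-low replicate 3 or E18 replicate 2, 3 or 5. That of Unc13a ended without any of these 7 arrays except E18 replicate 2 (adjusted p up to 0.314 over the 3 genes). The count against GFP-low cells was 7 without GFP-low replicate 2 and also 7 without replicate 3.

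A few genes were lower at E18. Syn2, at 7.13, 7.18, 7.74 and 7.56, was 1.76-fold below GFP-high and 1.90-fold below GFP-low cells (adjusted p = 0.00173 and 0.00257), and 3 of its other probe sets were also called lower against GFP-high cells. Slc17a6, at 9.30 to 9.51, was 1.48-fold below GFP-high cells (-0.56 ± 0.14, adjusted p = 0.0112), and Syt11 1.85-fold (adjusted p = 0.00426). Both of these calls ended with the mean of all probe sets (adjusted p = 0.140 and 0.320). Camk2a fell from 6.03 ± 0.17 to 4.86 ± 0.48 (-1.17 ± 0.21, adjusted p = 0.00124), in the dim range, and none of its other 5 probe sets passed (adjusted p of 0.204 or more). Sv2b was called lower against GFP-low cells, at 5.92 to 6.04 and 6.44 to 6.70 (adjusted p = 0.0449), a call that ended in 12 of 14 alternatives. Bsn, Nrxn2, Nlgn2, Lrfn5, Lrrtm2, Clstn3, Dlg2, Dlg4, Cplx2, Syp and Slc17a7 passed against neither E14 group.

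Cell type markers and control signals also differed between E18 and E14 cells, as did the GFP sort. Interneuron markers summed to 3241 to 3638 at E18 against 384 to 938 on the E14 Prominin-selected arrays, and oligodendrocyte lineage markers to 1689 to 2784 against 191 to 306. Neuron markers were higher for 9 of 18 genes and lower for 1 against GFP-high cells, and 3 higher and 3 lower against GFP-low cells. Radial glia markers were lower for 9 of 13 and higher for 2 against GFP-high cells, and lower for 7 and higher for 3 against GFP-low cells. Basal progenitor markers were lower for 5 and 4 of 6. The part of these markers, and that of the lower 18S and Gapdh 3′ minus 5′ signals at E18, was not tested. Cajal-Retzius markers summed to 905 to 1697 at E18, with 3 of 8 higher and 2 lower than in GFP-high cells and 6 lower than in GFP-low cells. Microglia markers summed to 226 at most on any array and stood above the median gene level for at most 1 of 7 genes in any group, and 0 of 7 endothelial and pericyte markers did.

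**Figure D5:**
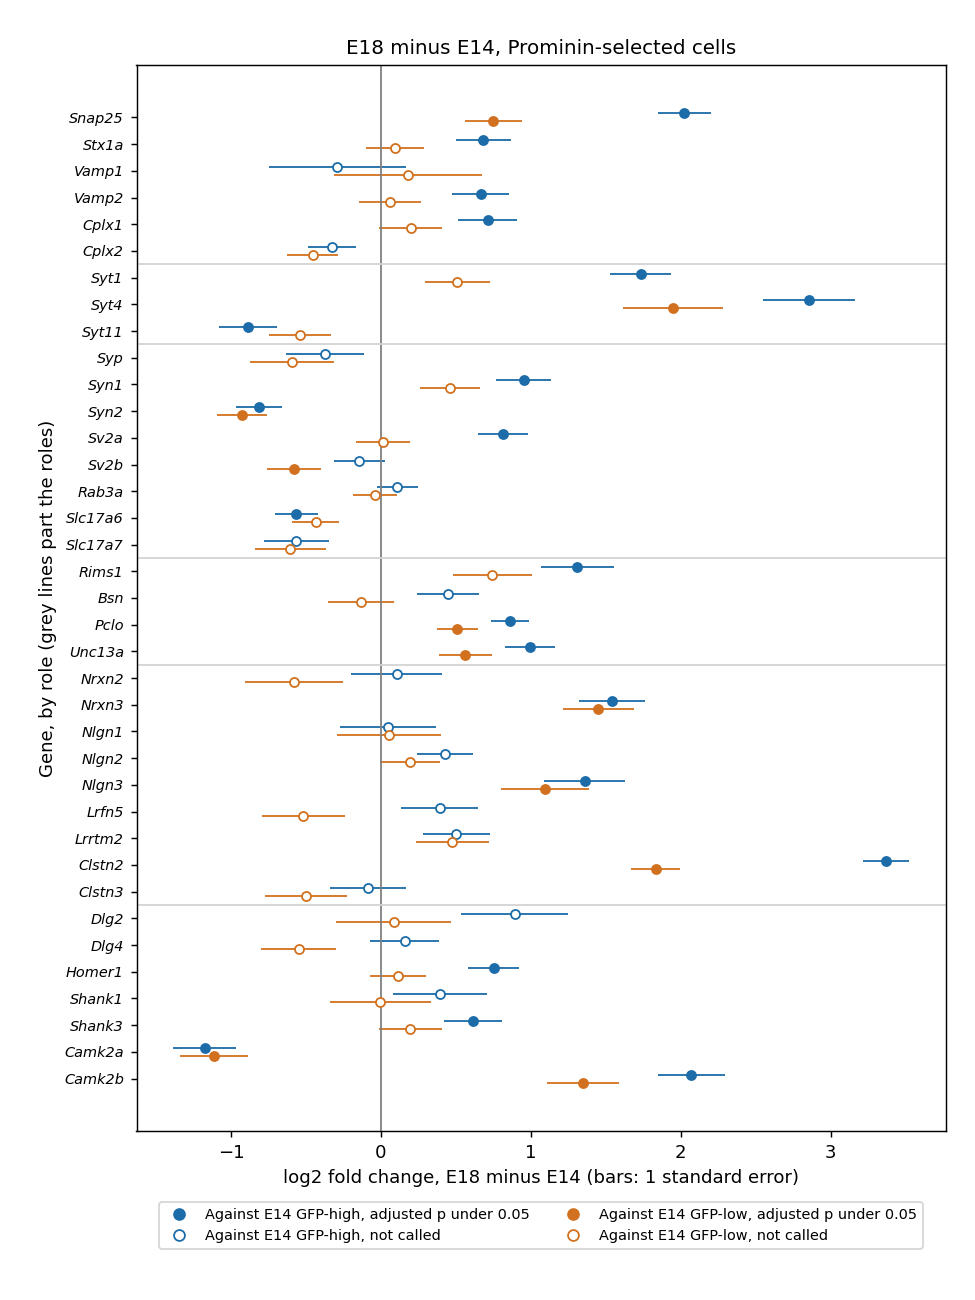
Log2 fold change of each synaptic gene, E18 minus E14 Prominin-selected cells, against GFP-high and against GFP-low cells, with bars of 1 standard error and filled points for an adjusted p under 0.05. Clstn2 lies farthest to the right in the comparison with GFP-high cells (3.37), and Syn2 and Camk2a are called lower in both.

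The 7 comparisons share groups and arrays, so calls of a gene in several of them are not separate results. Calls over several comparisons were not counted for all genes. Vamp1, Rab3a, Nlgn1 and Shank1 were called in none of the 7, and Snap25, Syt1 and Clstn2 in 6 or 7. The 3 differ in where they were highest: Snap25 and Syt1 in ungated GFP-low cells (10.58 ± 0.13 and 9.69 ± 0.16), and Clstn2 at E18 (10.67 ± 0.20) over ungated GFP-low cells (9.59 ± 0.41). Rab3a, at 9.11 to 10.03 in group means, and Nlgn1, at 6.26 to 7.01, gave adjusted p of 0.107 or more and 0.245 or more. Their absence from the calls does not show that their levels were equal.

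A wider list of 90 other synaptic genes, of which 83 were measured, was counted in the same fits. In ungated cells 4 were higher (4.82%) and 35 lower (42.2%) at high GFP, against 7.61% and 8.16% of all genes. Within the gate none was higher and 7 were lower (8.43%, against 1.20% of all genes). At an unadjusted p under 0.05 there were 23 of these 83, and 2440 of all 18193 genes. Sh3gl2, an endophilin that shapes vesicles during their retrieval, was lower in both (log2 fold change -4.14 ± 0.28 and -1.42 ± 0.19, adjusted p = 0.000611 and 0.00611), and so was the vesicle GTPase gene Rab3c (-3.03 ± 0.20 and -0.92 ± 0.15). Within the gate Erc2, a scaffold of the active zone, and the synaptotagmin gene Syt16 were also lower (-1.20 ± 0.17 and -1.09 ± 0.24), the latter to a dim level. Dnm1, the dynamin that pinches vesicles off, and Svop, a vesicle transporter relative, were lower in ungated cells (-2.87 ± 0.18 and -2.65 ± 0.27). Of the 4 higher genes, Vamp3 and Snap23 are SNARE genes expressed in many cell types, at 1.57 ± 0.18 and 1.68 ± 0.29, and Cadps2, which primes dense core vesicles, was at 1.53 ± 0.22. The gated minus the ungated contrast was called above 0 for 21 (25.3%, against 3.87% of all genes) and below 0 for 1, Vamp3 (-1.20 ± 0.23). By sign alone, 63 of the 83 lay above 0 and 20 below.

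With the gate, 22 of the 83 were higher (26.5%, against 11.8% of all genes) and 1, Snap23, lower in GFP-high cells, with Syt7 first (5.24-fold). In GFP-low cells 6 were higher (7.23%, against 10.8%) and 19 lower (22.9%, against 8.46%). At E18, 20 were higher (24.1%, against 10.2%) and 7 lower (8.43%, against 16.5%) than in GFP-high cells, and 10 higher (12.0%, against 6.02%) and 6 lower (7.23%, against 11.4%) than in GFP-low cells. Syt16 rose most, by 2.64 ± 0.22 from a dim level in GFP-high cells and by 1.56 ± 0.24 over GFP-low cells (adjusted p = 5.05e-06 and 0.000961). Syn3, another synapsin, was 4.74-fold and 2.63-fold higher, and the liprin gene Ppfia2 4.18-fold and 2.49-fold. Cadps2 fell to a dim level (-1.54 ± 0.19 and -0.94 ± 0.20), and Homer2 was 2.41-fold and 2.31-fold lower.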

How the data were processed

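The authors deposited 1 linear intensity per probe set for 45101 probe sets on each of 17 Affymetrix mouse arrays. No source used here names the software that summarised the probes or its scaling target, and probe sets that share a sequence with other genes cannot be told apart. Per the labels' protocols, total RNA was extracted on RNeasy columns, treated with DNase and labelled with biotin.

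After 64 control probe sets were left out, intensities were transformed to log2 with a pseudocount of 16, which understates the change of dim genes, and normalised by quantiles. The 34945 probe sets with 1 gene symbol in the platform table gave 18193 genes, each by its probe set with the highest mean. The 37 synaptic genes found had 93 probe sets in all, and 28 genes had more than 1. Genes were fitted with limma 3.58.1 in R 4.3.3 (lmFit, eBayes) in 7 comparisons: contrasts among the Prominin-selected groups on those 11 arrays, GFP-high against GFP-low ungated cells on 6, and the rest on all 17. Promoters and figures used Python 3.11.15 and matplotlib 3.10.9. The procedure was tested on simulated data.

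The genes, lists and tests were chosen with earlier results of these data known, and every gene listed was named whatever its result. Other synaptic genes named were taken from the 4 largest rises and 4 largest falls called in each comparison, and not all of these are named. Alternatives changed the pseudocount (1 and 64), the scaling, the filter on dim genes, the choice of probe set, the arrays in the fit, the kit, the replicate block and single arrays. Arrays with the same replicate number correlated at -0.144 to 0.0402 over 27 pairs after group means were removed, and were treated as unpaired. No 2 arrays were identical (0 pairs).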

Additional observations from a re-analysis of the deposited data

Results flagged for a closer look

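Within groups of 4 arrays, 3 levels out of 74 groups tested lay far from the rest by Dixon's criterion, which chance meets in about 1 in 20 groups. Sv2a read 6.93 on Prominin-selected GFP-high replicate 4 against 7.49 to 7.55 on the others of that group. On E18 replicate 4, Rims1 read 6.39 against 7.10 to 7.24 and Nlgn3 read 7.12 against 7.80 to 7.93.

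The GFP contrast differed with the Prominin gate for 16 genes, given here as the gated minus the ungated log2 fold change (limma). Fusion genes and calcium sensors were Snap25 at 1.95, Stx1a at 1.21, Cplx1 at 2.79, Cplx2 at 1.14, Syt1 at 2.71 and Syt4 at 1.91. Vesicle protein and transporter genes were Syn1 at 1.80, Sv2a at 1.99, Sv2b at 1.34, Slc17a7 at 1.58 and Slc17a6 at -1.11. Release site and adhesion genes were Bsn at 1.85, Unc13a at 1.44, Nrxn2 at 1.74, Lrfn5 at 3.52 and Clstn2 at 2.61.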

How the results depend on the processing

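No synaptic gene called in any setting reversed, and no median over the 37 genes changed sign. The calls kept in every alternative were 0 of 4 for GFP within the gate, 12 of 27 ungated, 12 of 21 and 4 of 11 for E18 against GFP-high and GFP-low cells, 6 of 14 and 2 of 17 for the gate at high and low GFP, and 11 of 16 for the difference of contrasts. The cause of the changes below was not tested.

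For GFP within the gate, the 305 genes and 4 synaptic genes called became 74 and 2 with a pseudocount of 1, 554 genes with a pseudocount of 64, 510 without the dimmest 40%, and 143 and 1 with the mean of all probe sets. With the replicate block they were 8 and 1. Without 1 array they were 76 to 228 and 2 to 3, and after removal of 2 arrays chosen after seeing the data (replicate 1 of GFP-high, replicate 3 of GFP-low cells) 6 and 0. For ungated GFP, the replicate block gave 1867 of 2869 genes and 20 of 27 synaptic genes, removal of 1 array 1841 to 2854 and 20 to 27, and removal of 2 arrays also chosen afterwards (replicate 1 of GFP-high, replicate 2 of GFP-low cells) 1257 and 14. Its median of -1.40 was -1.59 and -1.18 with a pseudocount of 1 and 64, -1.06 with the mean of all probe sets, and -1.61 to -1.31 without 1 array. With the replicate block, E18 gave 3083 of 4850 genes against GFP-high cells, and 1128 of 3166 genes and 5 of 11 synaptic genes against GFP-low cells, where removal of 1 array gave 7 to 10. With the kit as a factor, the gate gave 1688 of 3774 genes at high GFP, and 373 of 3496 genes and 2 of 17 synaptic genes at low GFP, where a fit on those arrays alone gave 1518 genes. The median difference of contrasts, 1.09, was 0.75 with a pseudocount of 64 and 0.87 with the mean of all probe sets. The replicate block moved no other count of synaptic genes by over 1.5 times. Dim genes, whose signal is near that of the pseudocount, limit what can be said of Vamp1, Shank1 and Camk2a.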
